A study of Arabidopsis thaliana with 9 samples.

Results

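Prx37, PRX52 and PRXR1 are 3 class III peroxidase genes of Arabidopsis thaliana, at the loci AT4G08770, AT5G05340 and AT4G21960. They were taken by symbol from earlier results of these data, selected on their differences in intensity between protoplasts and intact cells. They are 3 of 13356 genes that could be read from a probe set of a single gene. A hand-written list of the family by locus holds 73 loci, of which 55 were measured. Each of the 3 genes had 1 such probe set on the Affymetrix ATH1 array, a chip that reports 1 fluorescence intensity per probe set. The 9 arrays came from the wild-type T87 line, a light-grown suspension culture of undifferentiated cells, and all cells were 4 days into their culture cycle. Intact cells (n = 3) were collected as they were. Osmotic cells (n = 3) kept their walls and spent 3 h in medium with 0.4 M mannitol, a sugar alcohol that lowers the water potential. Protoplasts (n = 3) were made by digesting the wall for 1.5 h with 1% cellulase and 0.5% pectolyase in 0.35 M mannitol. They were then washed in mannitol and kept in that mannitol medium for 3 h as well. No mock treatment of intact cells is given in the labels, so mannitol, handling and time in the medium cannot be told apart. All 3 groups come from 1 cell line.

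Class III peroxidases are secreted haem enzymes that use hydrogen peroxide to oxidise phenolic compounds. In the wall they couple monolignols into lignin and cross-link phenolic groups of polysaccharides and structural proteins, which stiffens the wall, and in another cycle they can also make reactive oxygen species that loosen it. Plants hold many such genes, and stress, wounding and pathogens are known to raise the transcripts of some of them. Overexpression of Prx37 in Arabidopsis is known to give dwarf plants, and PRX52 is known for a part in the lignin of the Arabidopsis stem. PRXR1 is named here as a family member only.

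Arrays had been scaled alike, with a trimmed mean near 500. Median intensities were lower in protoplasts, from 115.7 to 131.0, than on the arrays of walled cells, from 144.9 to 162.8. Over all genes, 70.2% of the variance lay on the first principal component. Replicate 3 stood apart from replicates 1 and 2 in every group, so results for the 3 genes are also given for replicates 1 and 2 alone. The ratio of 3′ to 5′ signal of the ubiquitin control, a measure of RNA integrity, ran from 0.975 to 1.11 in protoplasts, from 1.19 to 1.34 in osmotic cells and from 1.27 to 1.44 in intact cells. The same ratio of the actin control ran from 2.12 to 2.46 in protoplasts and from 1.67 to 2.11 over the other arrays, and that of GAPDH from 0.926 to 1.20 over all 9 arrays. Its part in the differences below was not tested. Of 15 markers of endodermis, vessel and root hair, 3 were measured. The vessel gene GUT2 lay between 89.6 and 114 on all arrays, while the root hair genes EXPA7 and EXPA18 lay between 2.96 and 51.0. Without detection calls, the values of EXPA7 and EXPA18 cannot be told from background. The summed intensity of these 3 markers, most of it from GUT2, was 140.3 to 172.0 in intact cells, 106.0 to 138.6 in osmotic cells and 127.6 to 167.8 in protoplasts.

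Prx37 was dim on arrays of walled cells and bright on those of protoplasts. Its intensities were 52.8, 35.9 and 39.8 in intact replicates 1 to 3. In osmotic cells they were 11.6, 4.72 and 30.6. In protoplasts they were 3139, 2480 and 455. Every protoplast array was above every array of walled cells, and every osmotic array was below every intact one. No detection calls were used, so the low values of Prx37 in walled cells cannot be told from background. Between 17.7% and 21.3% of all probe sets were under 16 on an array. Mean intensities of Prx37 were 42.8 ± 8.88 in intact cells, 15.6 ± 13.4 in osmotic cells and 2024 ± 1399 in protoplasts (SD, n = 3). In bulk samples such as these, fewer cells that express a gene and less RNA of it per cell cannot be told apart.

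PRX52 was lowest in intact cells, intermediate in osmotic cells and highest in protoplasts. Intact replicates 1 to 3 had intensities of 880, 863 and 205. Osmotic replicates had 2674, 1548 and 481. Protoplast replicates had 13722, 14108 and 12606. The protoplast arrays lay close together and above all others, while intact and osmotic arrays overlapped, since osmotic replicate 3 lay below intact replicates 1 and 2. The means were 649 ± 385 in intact cells, 1568 ± 1097 in osmotic cells and 13478 ± 780 in protoplasts (SD, n = 3). On the log2 scale the SD of PRX52 was 1.16 in intact cells, 1.24 in osmotic cells and 0.08 in protoplasts.

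PRXR1 ran in the opposite order. Its intensities were 2986, 3214 and 7962 in intact replicates 1 to 3. They were 1441, 1972 and 5248 in osmotic cells. They were 239, 312 and 864 in protoplasts. Here too the protoplast arrays did not overlap those of the other groups, all being lower, and intact and osmotic arrays overlapped. Replicate 3 was the highest of its group in each of the 3 groups. Mean intensities were 4721 ± 2809 in intact cells, 2887 ± 2062 in osmotic cells and 471 ± 342 in protoplasts (SD, n = 3).

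**Figure D1:**
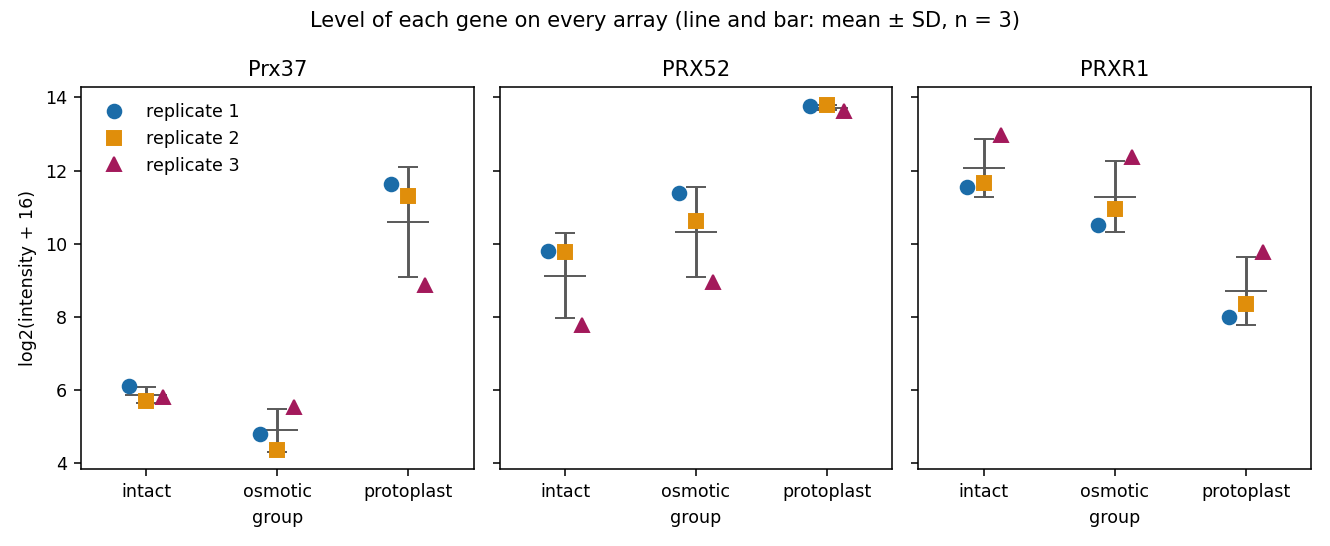
Level of Prx37, PRX52 and PRXR1 as log2(intensity + 16) on each of the 9 arrays, with the 3 groups on the x axis, 1 marker shape per replicate number, and the mean ± SD (n = 3) as line and bar. Protoplasts stand above the walled cells for Prx37 and PRX52 and below them for PRXR1, and replicate 3 is low for PRX52 in walled cells and high for PRXR1 in all groups.

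The comparison of osmotic with intact cells shows how the 3 genes stood in mannitol medium while the wall was in place. A limma model was fitted to log2(intensity + 16) across all 13356 genes and 9 arrays, and genes with an adjusted p under 0.05 were called. The added 16 shrinks the differences of dim genes such as Prx37. None of the 3 genes was called, against 7.33% of all genes (3.58% higher and 3.75% lower). PRX52 differed by 1.20 ± 0.66 (SE, limma adjusted p = 0.331), which is 2.29-fold. Prx37 differed by -0.97 ± 0.63 (SE, limma adjusted p = 0.418). PRXR1 differed by -0.78 ± 0.61 (SE, limma adjusted p = 0.513). The intact arrays in this comparison are those on which the genes were chosen, so its p-values for them are not independent of that choice. That the osmotic arrays of Prx37 were all below the intact ones is shared with 16.2% of all genes.

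These 3 results turned on how replicate numbers were treated. Across genes, deviations of same-numbered intact and osmotic arrays from their group means correlated at 0.101, 0.177 and 0.31 for numbers 1 to 3. Intact replicate 1 had 0.13 with osmotic replicate 2, and intact replicate 2 had 0.152 with osmotic replicate 1. The third arrays thus deviated together, while numbers 1 and 2 were not shown to pair. Within numbers PRXR1 was lower in osmotic cells by similar amounts, at -1.04, -0.70 and -0.60 for numbers 1 to 3. With the replicate number as a block, PRXR1 had -0.78 ± 0.17 and was called (SE, limma adjusted p = 0.0316), 1 of the 3 genes in a fit that called 8.40% of all genes (4.16% higher and 4.24% lower). PRX52 was higher in all 3 same-numbered pairs, by 1.59, 0.83 and 1.17, and had 1.20 ± 0.42 with the block (SE, limma adjusted p = 0.132). Prx37 was lower in all 3 pairs, by values of -1.32, -1.32 and -0.26, and had -0.97 ± 0.64 with the block (SE, limma adjusted p = 0.409).

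With replicates 1 and 2 alone, a fit that called 11.0% of all genes (6.30% higher and 4.72% lower), Prx37 and PRX52 were called instead. Prx37 then had -1.32 ± 0.24 (SE, limma adjusted p = 0.0279) and PRX52 had 1.21 ± 0.27 (SE, limma adjusted p = 0.0459), while PRXR1 had -0.87 ± 0.22 and was not called (SE, limma adjusted p = 0.0638). Replicate 3 was left out after it was seen to deviate, which by itself narrows the spread. For PRX52 the SE fell from 0.66 to 0.27 and the difference hardly moved from 1.20, so its call is not read as support. The call of Prx37 sets values against each other that cannot be told from background, so it is not read as a change of its transcript. PRX52 ranged from 0.53 without intact replicate 3 to 1.88 without osmotic replicate 3. The same omissions gave -0.33 and -1.32 for PRXR1. No fit that left out a single array called any of the 3 genes.

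**Figure D2:**
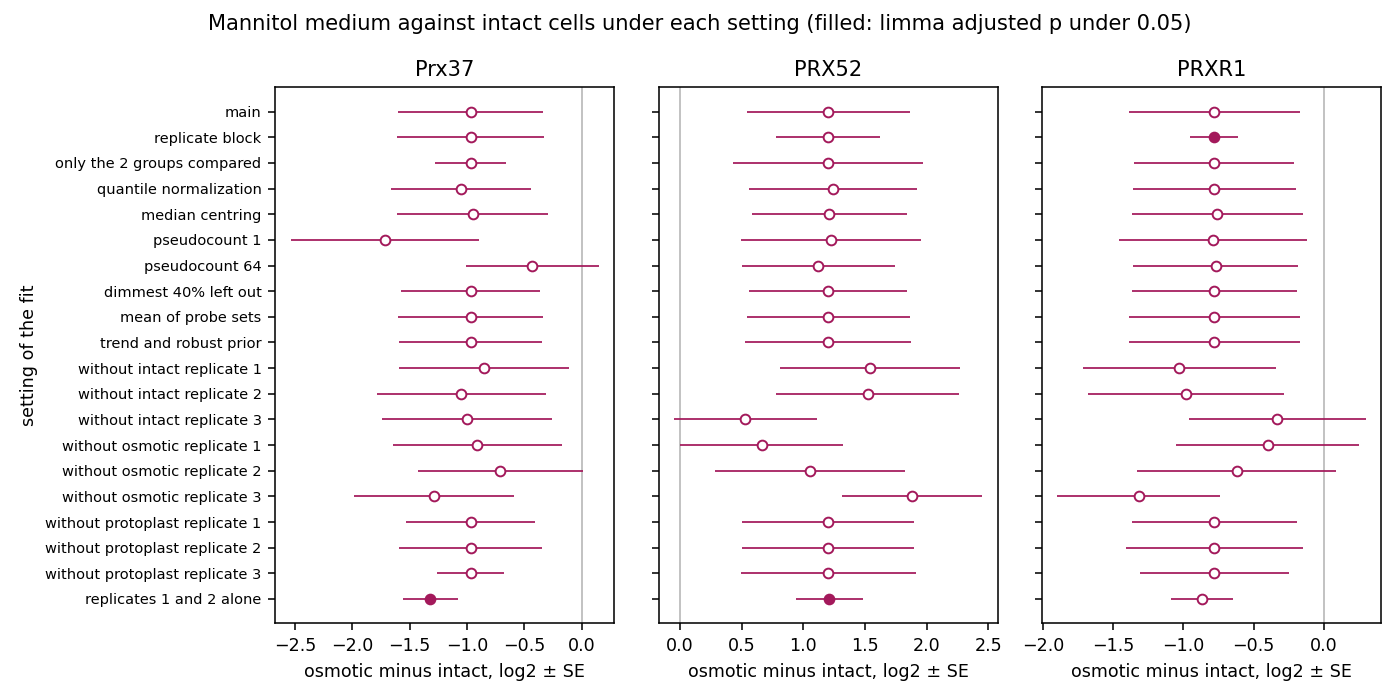
Difference between osmotic and intact cells in log2(intensity + 16), with its SE, for each of the 3 genes on the x axes and each setting of the fit on the y axis. Filled points mark a limma adjusted p under 0.05, which occurs once per gene: for PRXR1 with the replicate block, and for Prx37 and PRX52 with replicates 1 and 2 alone.

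Protoplasts were compared with intact cells, the comparison on which the 3 genes were chosen, so the values are a description without a test. Prx37 was higher in protoplasts by 4.73 ± 0.63 on the log2 scale (SE). As its values in walled cells cannot be told from background, the size depends on the added 16, and it was 5.14 with 1 and 3.92 with 64 in place of 16. PRX52 was higher by 4.59 ± 0.66, or 24.2-fold. PRXR1 had -3.35 ± 0.61 and was 10.2-fold lower. With replicates 1 and 2 alone the 3 differences were 5.55, 3.97 and -3.43. Arrays of the groups did not overlap for any of the 3, as for 19.6% of all genes in the higher and 33.0% in the lower direction. The median of all genes was -0.10 as deposited and 0.22 after each array was centred on its median, and the 3 genes then had 5.05, 4.91 and -3.03. The peroxidase gene next in size among those with a peroxidase name, AT5G64120 (PRX71 among the table's synonyms), was higher by 2.66 ± 0.48.

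Within same-numbered arrays, PRXR1 was the most even of the 3, with protoplast minus intact values of -3.56, -3.30 and -3.18 for numbers 1 to 3. PRX52 had 3.94, 4.01 and 5.84, and the intact array of number 3 was the low one. Prx37 had 5.52, 5.59 and 3.08, and the protoplast array of number 3 was the low one.

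Protoplasts and osmotic cells shared the 3 h in 0.4 M mannitol medium and differed in the digestion and washing. The digestion was itself 1.5 h in 0.35 M mannitol, so protoplasts also spent longer in mannitol. Digestion, washing and this longer time cannot be told apart. The protoplast arrays are those on which the genes were chosen, so these values are again given without a test. Prx37 was higher in protoplasts by 5.70 ± 0.63 (SE), and by 6.86 with an added 1 and 4.36 with an added 64, since its osmotic values are not told from background. PRX52 was higher by 3.40 ± 0.66, or 10.5-fold, and PRXR1 was 5.92-fold lower with -2.57 ± 0.61. With replicates 1 and 2 alone Prx37, PRX52 and PRXR1 had 6.88, 2.76 and -2.56. No array of protoplasts overlapped one of osmotic cells for these genes, as for 16.9% of all genes in the higher and 30.7% in the lower direction. For PRXR1 the same-numbered differences were -2.52, -2.60 and -2.58. For PRX52 they were 2.35, 3.18 and 4.67, and for Prx37 6.84, 6.91 and 3.34.

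The osmotic and protoplast differences share the intact arrays, and side by side they were 1.20 and 4.59 for PRX52, -0.78 and -3.35 for PRXR1, and -0.97 and 4.73 for Prx37. In order of level, PRX52 ran intact, osmotic, protoplast, PRXR1 protoplast, osmotic, intact, and Prx37 osmotic, intact, protoplast. Intact and osmotic cells are neighbours in each order. The genes were chosen on the gap between protoplasts and intact cells, so this is not read as a result. For Prx37 the order of osmotic and intact cells rests on values that cannot be told from background. In the fit of all 9 arrays without the block, the adjusted p of osmotic against intact cells passed for none of the 3 genes.

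**Figure D3:**
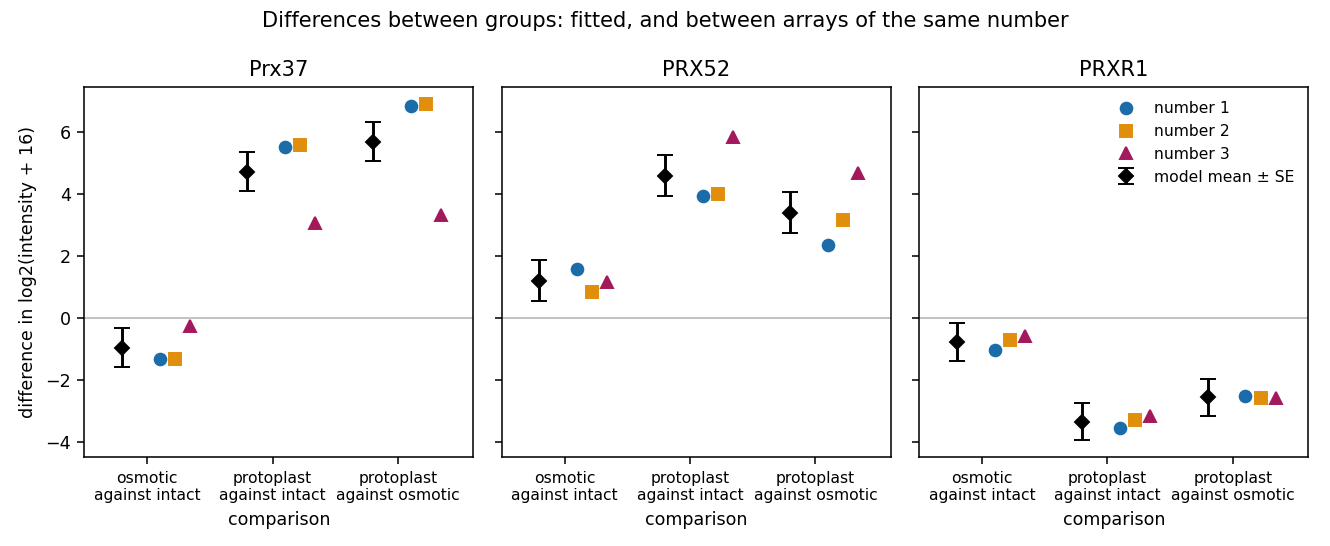
Differences in log2(intensity + 16) for the 3 comparisons on the x axis, 1 panel per gene. Black diamonds are the fitted differences ± SE, and coloured markers are differences between arrays of the same replicate number, which are nearly equal for PRXR1 (-2.60 to -2.52 between protoplasts and osmotic cells) and wide for Prx37 (3.34 to 6.91).

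Replicate 3 differed from the mean of replicates 1 and 2 in a way of its own for each gene. For PRXR1 it was higher by 1.36, 1.63 and 1.61 on the log2 scale in intact cells, osmotic cells and protoplasts. Of all 13356 genes, 23 (0.172%) had replicate 3 at least 2-fold above that mean in all 3 groups, PRXR1 among them. For PRX52 it had -2.01 in intact and -2.04 in osmotic cells, but -0.14 in protoplasts. For Prx37 it had -0.10 in intact cells, 0.96 in osmotic cells and -2.57 in protoplasts. The pooled SD within groups was close to equal in the 3 genes, at 0.94 for Prx37, 0.98 for PRX52 and 0.90 for PRXR1.

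Against the wider family, PRXR1 had the lowest difference between protoplasts and intact cells among the 55 measured loci, and Prx37 and PRX52 had ranks 4 and 5 from the top. The 3 genes were chosen on this difference, so ranks near the ends follow from the choice and are not read as a result. The symbol and gene tables name 14 of the 73 loci as peroxidases, 7 of them measured, and the rest are known here by locus code, placed in the family by the list. Between protoplasts and intact cells, 11 of the 55 loci rose and 9 fell, the 3 genes included, beside 15.8% and 29.2% of all genes (45.0% in either direction, limma adjusted p under 0.05). Without the 3 genes, 9 of 52 rose and 8 fell. These falls include AT3G49960, from a mean of 24.0 to 1.08, and AT5G14130, from 20.4 to 4.76, values that cannot be told from background. Many loci of the list were dim in every group, such as AT3G01190 with means of 2.13, 5.78 and 4.29 in intact cells, osmotic cells and protoplasts. Their missing calls, here and in the comparisons below, are not read as a lack of change. The median difference was 0.13 in the list and -0.10 over all genes. AT1G14550 rose from a mean intensity of 19.3 ± 15.6 in intact cells to 18335 ± 3738 in protoplasts (SD, n = 3), by 9.09 ± 0.45 on the log2 scale (SE, limma adjusted p = 1.1e-06). Its intact arrays, from 8.40 to 37.2, are as dim as those of Prx37 in walled cells, so this size too depends on the added 16, with 10.07 for an added 1 and 7.78 for an added 64. AT5G39580 rose by 7.42 ± 0.27, AT4G36430 by 6.26 ± 0.43 and AT5G19880 by 4.32 ± 0.38. AT5G39580 too was dim in intact cells, and had 7.85 with an added 1 and 6.55 with an added 64. AT2G37130 changed by -3.05 ± 0.33, close to PRXR1, and AT5G40150, AT5G17820 and AT4G33870 by -2.62, -2.02 and -1.48. After each array was centred on its median, 18 rose and 7 fell, beside 24.5% and 21.7% of all genes (46.2% in either direction).

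In mannitol medium 1 of the 55 loci rose and 3 fell (limma adjusted p under 0.05), 7.27% of the list beside 7.33% of all genes. Many uncalled loci were too dim to show a change, so the likeness of these shares is not read as a result. AT5G39580 rose by 1.58 ± 0.27 (SE, limma adjusted p = 0.00979). AT5G40150, AT5G17820 and AT3G28200 changed by -1.19, -0.96 and -0.85. PRX52 had rank 4 from the top of the 55 differences, and Prx37 and PRXR1 had ranks 2 and 6 from the bottom. With the replicate block 2 rose and 4 fell, beside 4.16% and 4.24% of all genes. The 3 falls became 1 without intact replicate 1 or 2 or osmotic replicate 1 or 2, and the 1 rise became 2 without replicate 3 of any 1 group. Replicates 1 and 2 alone gave 5 rises and 6 falls, beside 6.30% and 4.72% of all genes.

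Between protoplasts and osmotic cells 12 of the 55 loci rose and 6 fell, beside 13.3% and 25.7% of all genes (39.0% in either direction, limma adjusted p under 0.05). These counts hold the 3 genes, which were chosen on the same protoplast arrays, and without them 10 of 52 rose and 5 fell. The rises include AT1G71695, from a mean of 9.15 to 29.4, values that cannot be told from background. AT1G14550, AT5G39580, AT4G36430 and AT5G19880 rose by 7.60, 5.83, 5.77 and 3.29. AT2G37130, AT5G40150, AT4G33870 and AT2G22420 changed by -3.12, -1.43, -1.40 and -1.35. Prx37 and PRX52 had ranks 4 and 5 from the top here as well, and PRXR1 rank 2 from the bottom, which again rests on that choice.

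**Figure D4:**
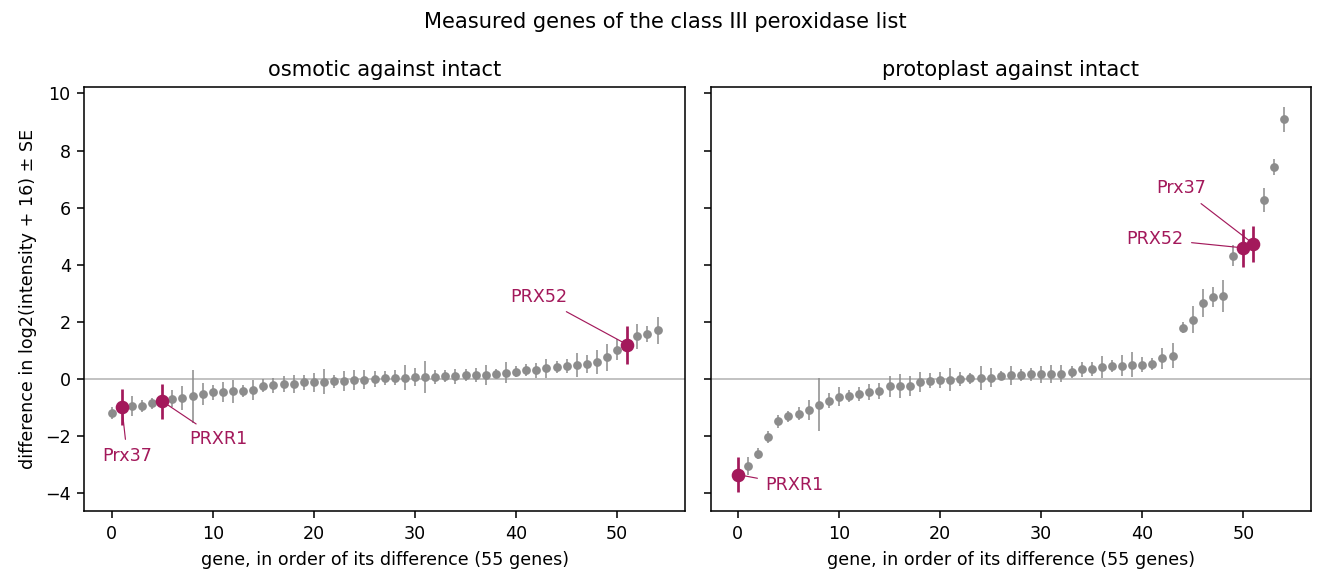
Differences in log2(intensity + 16) ± SE of the 55 measured loci of the class III peroxidase list, in order of size along the x axis, for osmotic cells (left) and protoplasts (right) against intact cells. Prx37, PRX52 and PRXR1 are coloured; the differences span -1.19 to 1.70 in osmotic cells and -3.35 to 9.09 in protoplasts.

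The protein-coding gene next to Prx37 in the gene table, AT4G08780, is on the family list and was measured by its own probe set. It was singled out after its values were seen. Its intensities were 26.3, 32.9 and 4.62 in intact cells, 41.6, 26.3 and 4.21 in osmotic cells, and 485, 267 and 111 in protoplasts. It rose between intact cells and protoplasts by 2.91 ± 0.56 (SE, limma adjusted p = 0.00194). Tandem copies of a gene can share probes, and how far these probe sets tell Prx37 from AT4G08780 was not tested. PRX52 and PRXR1 had no neighbour on the family list.

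The partners of peroxidases could be followed through few genes. Their calls stand beside 7.33% of all genes called in mannitol medium. In protoplasts 15.8% of all genes rose and 29.2% fell against intact cells, and 13.3% rose and 25.7% fell against osmotic cells. The calls below are therefore not read as particular to these partners. Of 19 genes of monolignol synthesis, which makes the substrates that PRX52 and its relatives couple, 2 were measured. CCR2, a cinnamoyl-CoA reductase gene, rose in mannitol medium by 2.57 ± 0.42 (SE, limma adjusted p = 0.00795) and HCT did not pass there with 1.00 (limma adjusted p = 0.0959), while in protoplasts against intact cells CCR2 rose by 6.21 and HCT by 3.51. Of 10 NADPH oxidase genes, whose enzymes make the superoxide from which apoplastic hydrogen peroxide comes, 3 were measured. AT4G11230 rose in protoplasts by 1.05 ± 0.28 against intact cells (SE, limma adjusted p = 0.0129) and by 1.43 against osmotic cells, and the other 2 did not pass. These, AT1G19230 and AT4G25090, had mean intensities of at most 41.2 and 6.90 in any group. Such values cannot be told from background, so their missing calls are not read as a lack of change. Of 19 other peroxide-removing enzyme genes, 2 were measured, the chloroplast ascorbate peroxidase genes SAPX and TAPX. SAPX changed by -0.75 in mannitol medium and -0.66 in protoplasts, and TAPX by -1.23 in protoplasts, all called. Of 11 genes of extensins and other cross-linked wall proteins, 2 were measured, and AT3G24480 changed by -0.89 ± 0.28 in protoplasts against intact cells (SE, limma adjusted p = 0.0257). Of 17 laccase genes, whose enzymes also oxidise monolignols, LAC16 was measured and did not pass in any of the 3 comparisons. Its mean intensities were 2.72 in intact cells, 5.68 in osmotic cells and 6.70 in protoplasts, too dim to show whether it changed.

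The genes of most alike pattern were sought by Pearson's r of log2(intensity + 16) over the 9 arrays among 1555 other genes with a symbol of their own. These arrays share 3 groups and replicate 3, so r is a description. For Prx37 they were PRA1.B4 of the PRA1 vesicle trafficking family with r = 0.980, the monodehydroascorbate reductase gene ATMDAR2 with 0.978, the methionine sulfoxide reductase gene MSRB9 with 0.976, XTH29 of the xyloglucan endotransglucosylase family with 0.976 and the beta-glucosidase gene BGLU32 with 0.972. Their protoplast minus intact differences ran from 1.63 for ATMDAR2 to 5.46 for BGLU32, around the 4.73 of Prx37. Osmotic minus intact values ran from -0.61 for PRA1.B4 to 0.20 for BGLU32, with MSRB9 at -0.10 and XTH29 at -0.03. As the genes were picked by r over the same arrays, a shared direction follows from the pick.

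For PRX52 the most alike genes were the cytochrome P450 gene CYP71B6 with r = 0.988, the vacuolar processing enzyme gene ALPHA-VPE with 0.986, the chitinase gene CHI with 0.985, the homocysteine methyltransferase gene HMT-1 with 0.983 and the protein phosphatase gene PIA1 with 0.982. All 5 had positive osmotic minus intact values, from 0.55 for HMT-1 to 1.52 for ALPHA-VPE, beside 1.20 for PRX52. They were picked by r over the same arrays, so a shared direction follows from the pick. CHI was closest to PRX52 in size, with 4.61 between protoplasts and intact cells.

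For PRXR1 they were the aldehyde dehydrogenase gene ALDH22A1 with r = 0.990, the exon junction complex gene Y14 with 0.988, the histone kinase gene Haspin with 0.987, the acyl carrier protein thioesterase gene FaTA with 0.986 and the AMP deaminase gene FAC1 with 0.984. Their protoplast minus intact differences, from -2.14 for FaTA to -1.12 for Y14, were smaller in size than the -3.35 of PRXR1.

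**Figure D5:**
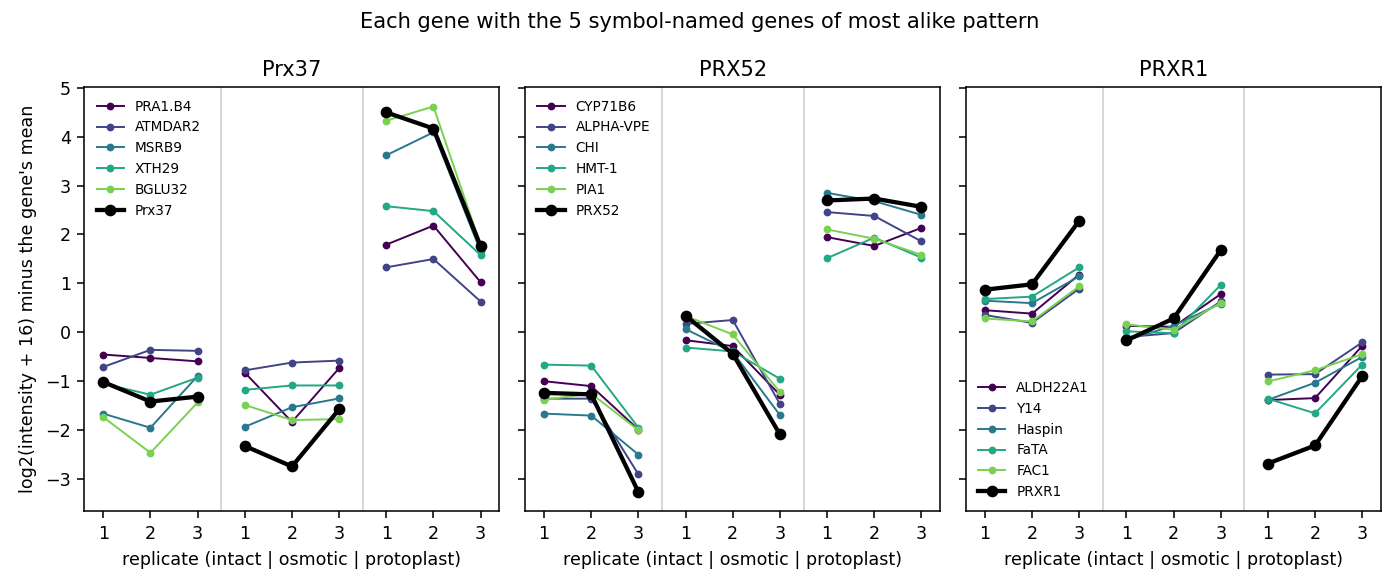
Prx37, PRX52 and PRXR1 (black) with the 5 genes of highest Pearson's r over the 9 arrays, each as log2(intensity + 16) minus the gene's own mean, arrays ordered by group and replicate number on the x axis. Lines only join the points of a gene within a group; the genes drawn with PRX52 are low and those drawn with PRXR1 high in replicate 3 of the walled cells.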

How the data were processed

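RNA of 9 T87 samples, 3 per group, was hybridised to ATH1 arrays from 750 ng of biotin-labelled total RNA, per the labels' protocols. The labels call the replicates independent biological replicates, so p-values measure the spread between these. The deposited values are linear intensities, 1 per probe set and array, with a trimmed mean (top and bottom 2% left out) near 500 on every array. The software that made these values was not given in the sources, and precision is limited by having 9 arrays.

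Of 22746 probe sets other than 64 controls, 13513 had 1 symbol in the platform annotation, 503 several and 8730 were not named by it. Genes were read from their brightest one-gene probe set, and 13286 loci were matched to the table of TAIR10.1. log2(intensity + 16) was fitted with limma 3.58.1 (R 4.3.3), 1 model for all 9 arrays, Benjamini-Hochberg within each comparison. The model was tested on simulated data for osmotic against intact cells, where 200 of 13356 genes had known shifts, and it recovered 40% of shifts of 2-fold and 71% of 4-fold. The shifted genes were drawn from all genes, each with its own spread, so these rates are averages. They were not worked out for Prx37, PRX52 and PRXR1, with pooled SDs of 0.94, 0.98 and 0.90. Their missing calls in mannitol medium are not read as a lack of change. Figures used Python 3.11.15 and matplotlib 3.10.9.

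Members, lists and the alternatives were chosen with earlier results of these data known. Named beside the 3 genes were the 4 largest called rises and falls per comparison of the family list without overlap between arrays, the largest called rise and fall of each other list, and 5 genes of alike pattern per member. AT5G64120 and AT4G08780 were named after their values were seen. A planned choice of paralogs by protein identity was not made, for want of sequences here. Same-numbered arrays correlated in their deviations from group means at 0.101 to 0.31 for intact and osmotic cells, 0.122 to 0.322 for osmotic cells and protoplasts, and 0.021 to 0.145 for intact cells and protoplasts. Every pair was above 0.1 in the first 2, where the replicate block is therefore given beside results whose call it changes or whose count it moves by over 1.5 times. The pairing comes from these values and the labels' numbers alone, and intact replicate 1 correlated no better with osmotic replicate 1 than with osmotic replicate 2 (0.13).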

Additional observations from a re-analysis of the deposited data

How the results depend on the processing

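The 20 alternatives were a replicate block, a fit to the 2 groups compared, quantile normalization, median centring, pseudocounts of 1 and 64, a filter on the dimmest 40% of genes, averaged probe sets, another variance prior, replicates 1 and 2 alone, leaving out each array, and, for counts, an adjusted p under 0.01. All 171 values of the 3 genes kept their sign. Several settings return the main difference by design, among them the replicate block, the fit to the 2 groups, averaged probe sets, the filter and the other prior. Leaving out an array of the group not compared does so too. The protoplast comparisons also use arrays on which the genes were chosen, so the kept signs are not read as support. In mannitol medium the limma adjusted p ranged from 0.0279 to 0.749 for Prx37, 0.0459 to 0.706 for PRX52 and 0.0316 to 0.849 for PRXR1. Prx37 (-1.32) and PRX52 (1.21) passed with replicates 1 and 2 alone, a choice made after replicate 3 was seen to deviate. PRXR1 (-0.78) passed with the replicate block. The block changed no other call of the 3 genes in that comparison. Leaving out 1 array gave -1.29 to -0.71 for Prx37, 0.53 to 1.88 for PRX52 and -1.32 to -0.33 for PRXR1. Prx37 between protoplasts and osmotic cells moved from 5.70 to 6.86 and 4.36 with pseudocounts of 1 and 64 and to 6.88 with replicates 1 and 2 alone. Of the family in mannitol medium, the 1 rise became 2 with the replicate block, a fit to the 2 groups or another prior, 3 without the dimmest genes and 5 with replicates 1 and 2 alone, and ranged from 1 to 2 without 1 array. The 3 falls became 1 with a pseudocount of 1 or an adjusted p under 0.01 and 6 with replicates 1 and 2 alone, and ranged from 1 to 3 without 1 array. The 11 rises in protoplasts against intact cells became 18 with median centring. Centring shifts all differences of a comparison by the same amount, and here the median of all genes went from -0.10 to 0.22. For intact cells and protoplasts, whose numbers were not shown to pair, the block gave the same differences of 4.73, 4.59 and -3.35, with SEs of 0.64, 0.42 and 0.17. Prx37 in walled cells is limited by its low signal.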

Other observations

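Of the 18 loci of the family list without a probe set of their own, some are read by 4 probe sets that serve several genes, which are outside the comparisons above. The probe set of AT2G18150 and AT2G18140 had intensities of 813, 831 and 96.0 in intact replicates 1 to 3, 800, 660 and 110 in osmotic cells, and 2904, 2634 and 2454 in protoplasts. Like PRX52, it was low in replicate 3 of the walled cells and even in protoplasts. The probe set of AT4G37530 and AT4G37520 had 102, 111 and 9.65 in intact cells, 134, 179 and 15.0 in osmotic cells, and 1372, 965 and 266 in protoplasts, with replicate 3 the lowest in each group. The other 2 had means of at most 18.4 in every group.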
